A study of Equus caballus with 25 samples.

Results

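Transcripts of complement C3 and of 3 genes that regulate complement, CD46, CFI and CLU (clusterin), were examined in bronchoalveolar lavage (BAL) cells of 25 horses. They made up 9 of the 7238 equine Ensembl transcripts on the array: 4 of C3, 3 of CD46, 1 of CFI and 1 of CLU. The transcripts were chosen by gene name. The array files carry no gene symbols, and the symbols used here come from the lists of changed transcripts that the study compiled from these same horses. Those lists name 1865 transcripts, so that a transcript of these genes without a reported change would not have been found, and the share of the 9 that changed is not independent evidence of a change.

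Each horse gave 1 BAL sample and 1 one-color array. The 7 CTRL horses (labeled Control) were clinically healthy standardbreds. The 10 MEA-affected horses (labeled IAD, mild equine asthma) were mostly saddle horses of similar age, selected by the study for neutrophilic inflammation. The 8 SEA-affected horses (labeled RAO, severe equine asthma) were also mostly saddle horses and were older on average. Breed and, in SEA, age therefore differ along with disease, and their part in the results was not tested. The labels give no treatment or allele for any group; per the study's methods, horses were sedated with xylazine for endoscopy, and the lavage fluid held saline and lidocaine. BAL cells of healthy horses are mostly macrophages, and neutrophils enter the airways in asthma. The lavage also carries exfoliated epithelial cells, which are counted apart from the inflammatory cells. The mean log2 intensity over the 6 tested macrophage transcripts was 9.36 to 11.03 in CTRL, 9.73 to 11.40 in MEA and 9.91 to 11.06 in SEA. Single macrophage transcripts differed widely, with CTRL means from 6.07 to 14.42, so that not all of them were bright. Between 58.2% and 90.8% of the spots of an array were well above background.

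Complement is a cascade of plasma and locally made proteins that marks particles for uptake and lyses cells. C3 is its central component: when cleaved it yields C3b, which binds covalently to surfaces, and the chemotactic peptide C3a. CFI is the serine protease that inactivates C3b, and it needs cofactors such as the membrane protein CD46, which protects host cells. CLU is a secreted chaperone that, among other roles, binds the terminal complex. Airway epithelial cells and macrophages are both known to make complement proteins.

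The 9 transcripts rest on 7 different probe sequences, and the sequences decide how many independent readings each gene has. The C3 identifiers ENSECAT00000007684, ENSECAT00000007897 and ENSECAT00000008036, carry the same 60 bases (probe A), which therefore lie on 6 spots of every array. ENSECAT00000020539 carries the other C3 probe (B). The CD46 probes A, B and C belong to ENSECAT00000012672, ENSECAT00000012975 and ENSECAT00000010143, and the CFI probe to ENSECAT00000014752. The following probes are shown because agreement between them is examined below, 5′ to 3′ as the array files give them and with no base marked.
C3 probe A: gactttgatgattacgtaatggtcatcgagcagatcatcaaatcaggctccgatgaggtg
C3 probe B: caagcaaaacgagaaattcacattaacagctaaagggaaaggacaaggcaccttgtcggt
CD46 probe A: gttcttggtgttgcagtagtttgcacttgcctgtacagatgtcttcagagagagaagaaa
CD46 probe B: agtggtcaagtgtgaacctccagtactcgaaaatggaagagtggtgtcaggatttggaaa
CD46 probe C: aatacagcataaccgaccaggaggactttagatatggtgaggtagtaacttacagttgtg
CFI probe: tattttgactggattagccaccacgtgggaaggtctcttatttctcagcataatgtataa

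The longest run of bases shared by 2 probes of a gene was 4 to 6, and no member probe shared a run of 20 bases with another probe of the array. Shared sequences are frequent on this array, where 7238 transcripts rest on 6693 sequences and 976 transcripts share their sequence with another. No positions in the horse genome are given, because the array files pair the identifiers with none.

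Between SEA and CTRL, all 9 transcripts were lower in SEA. A transcript counted as called where its adjusted p (Benjamini-Hochberg) was under 0.1 and its fold change 1.5 or more. Of the 4930 transcripts tested, 32.5% were called in this comparison, and 16.6% were called lower in SEA. Of the 1684 tested transcripts with a symbol, among which the 9 fall, 86.1% were called and 44.1% were called lower. The median log2 fold change was -2.24 over the 9 transcripts and -0.01 over all transcripts tested. Counted by sequence, 7 of the 7 probes were called, where 1459 of the 4557 sequences tested were. All values below are log2 intensities after normalization, and adjusted p values are limma's over all transcripts tested.

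For C3, ENSECAT00000008036 (probe A) ranged from 7.63 to 10.43 in CTRL (median 9.64), from 6.21 to 9.29 in MEA (median 7.48) and from 4.75 to 8.25 in SEA (median 6.46). The SEA horses lay lowest, and 7 of 8 were below the lowest CTRL horse. The transcript was 7.34-fold lower in SEA than in CTRL (log2 fold change -2.88, SE 0.50, adjusted p = 0.00396). The other identifiers of the same probe, ENSECAT00000007684 and ENSECAT00000007897, had medians of 9.49 and 9.67 in CTRL, 7.80 and 7.56 in MEA and 6.46 and 6.51 in SEA, and log2 fold changes between SEA and CTRL of -2.83 (SE 0.52, adjusted p = 0.00481) and -2.77 (SE 0.57, adjusted p = 0.00782). Probe B, a separate reading of C3, ranged from 5.27 to 8.07 in CTRL (median 7.24), from 3.87 to 6.76 in MEA (median 5.55) and from 2.80 to 6.64 in SEA (median 4.84). It was 4.73-fold lower in SEA (log2 fold change -2.24, SE 0.57, adjusted p = 0.0155), and 4 of 8 SEA horses were below the lowest CTRL horse. Probe B was well above background on 7 of 7 CTRL, 9 of 10 MEA and 5 of 8 SEA arrays. With normexp background correction, which adds an offset of 50 to every spot and so compresses dim probes, the SEA changes were smaller but still called, at -0.85 (SE 0.25, adjusted p = 0.0293) for probe B and -2.07 (SE 0.38, adjusted p = 0.00644) for ENSECAT00000008036 on probe A.

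CFI, the protease that inactivates C3b, ranged from 10.52 to 13.04 in CTRL (median 11.79), from 9.05 to 11.91 in MEA (median 10.23) and from 7.51 to 10.87 in SEA (median 9.69). In 7 of 8 SEA horses it was below the lowest CTRL horse. It was 4.62-fold lower in SEA than in CTRL (log2 fold change -2.21, SE 0.48, adjusted p = 0.00936).

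CD46, the membrane cofactor of CFI, was read by 3 different probes, all called lower in SEA. The differences between their fold changes had exact permutation p values of 0.129 to 0.597. Probe C (ENSECAT00000010143) ranged from 8.50 to 9.90 in CTRL (median 9.36), from 7.11 to 9.33 in MEA (median 8.34) and from 7.18 to 9.27 in SEA (median 8.02). It was 2.11-fold lower in SEA (log2 fold change -1.08, SE 0.31, adjusted p = 0.0214), and 5 of 8 SEA horses were below the lowest CTRL horse. Probe B (ENSECAT00000012975) ranged from 7.95 to 10.24 in CTRL (median 9.70), from 7.09 to 11.10 in MEA (median 8.64) and from 1.44 to 10.24 in SEA (median 7.48). Its spread in SEA was the widest among the 9 transcripts (SD 2.56, n = 8), with SEA replicate 1 at 1.44 and the other 7 SEA horses from 5.80 upward. The log2 fold change of probe B was -2.26 (SE 0.93, adjusted p = 0.0821) with all horses, -1.47 (SE 0.57, adjusted p = 0.0663) without SEA replicate 1 and -1.42 (SE 0.58, adjusted p = 0.0949) with normexp correction. Its call was lost when any of CTRL replicates 1, 3, 4 or 6 or SEA replicates 2, 3 or 8 was left out, with adjusted p values of 0.104 to 0.151.

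CD46 probe A (ENSECAT00000012672) was dim. It ranged from 3.48 to 6.33 in CTRL (median 4.28), from 2.22 to 6.86 in MEA (median 4.43) and from 1.57 to 5.3 in SEA (median 2.98), and was well above background on 6 of 7, 6 of 10 and 2 of 8 arrays. It lay below 4.5 on 17 of the 25 arrays, close to the 19 at which a transcript was left out. It was 3.35-fold lower in SEA (log2 fold change -1.74, SE 0.53, adjusted p = 0.0276). With normexp correction, the log2 fold change was -0.27 (adjusted p = 0.156).

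CLU ranged from 12.46 to 14.66 in CTRL (median 13.73), from 10.69 to 13.39 in MEA (median 11.79) and from 9.07 to 13.12 in SEA (median 11.97). The MEA and SEA ranges overlapped over most of their length, and both reached below the CTRL horses. CLU was 4.19-fold lower in SEA than in CTRL (log2 fold change -2.07, SE 0.56, adjusted p = 0.0177), and 6 of 8 SEA horses were below the lowest CTRL horse. No spot of the 9 transcripts was saturated on any array.

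**Figure D1:**
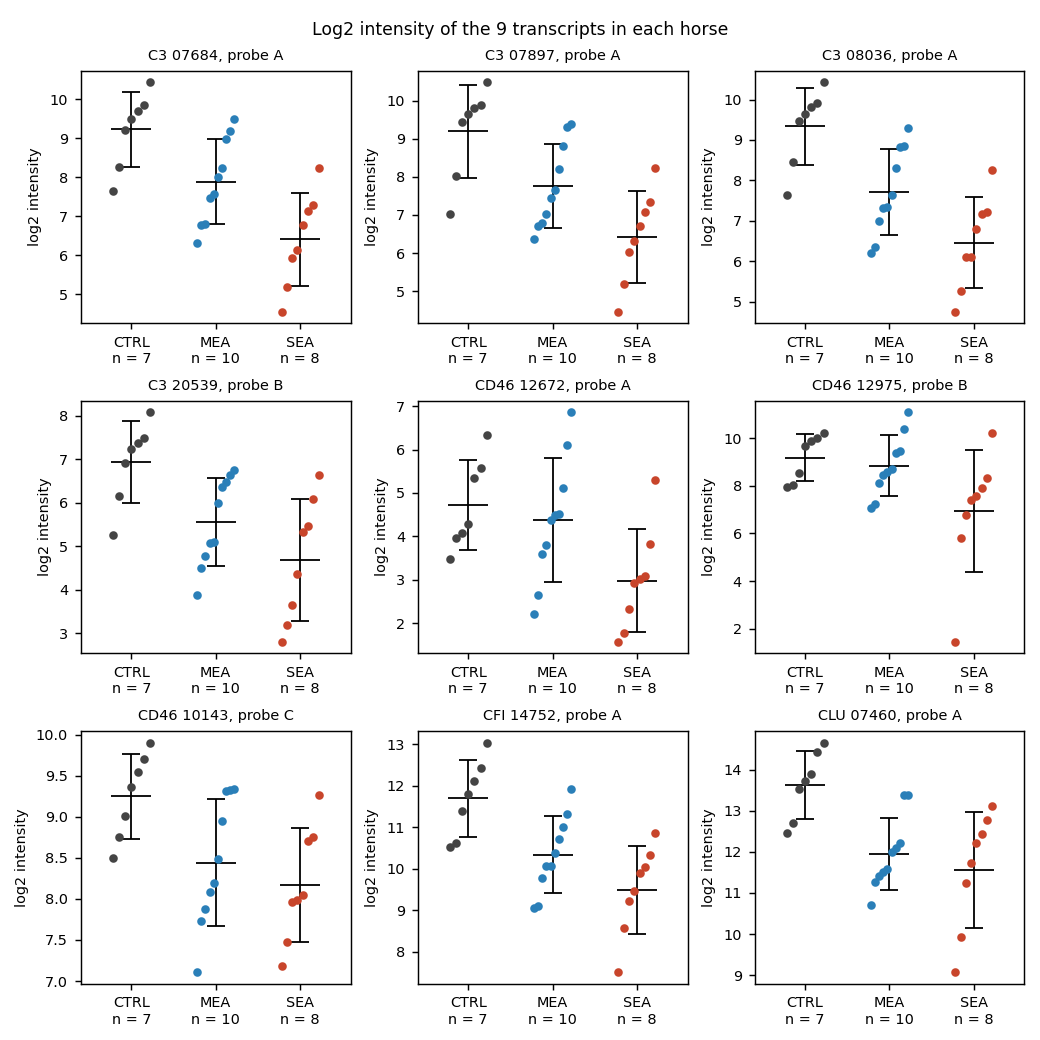
Log2 intensity of each of the 9 transcripts (vertical axis) in the 7 CTRL, 10 MEA and 8 SEA horses, 1 point per horse, with the group mean as a horizontal line and the SD as an error bar. Titles give the last digits of the identifier and the probe; every SEA mean lies below the CTRL mean, and CD46 probe B has 1 SEA horse at 1.44.

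Between MEA and CTRL, C3, CFI and CLU were lower in MEA, whereas no CD46 transcript was called by limma. Of the 9 transcripts, 5 were called, all lower, where 9.74% of all transcripts tested were called and 6.51% were called lower. Of those with a symbol, 25.2% were called and 18.1% were called lower. SAM with a rank sum statistic called 7 of the 9 (11.1% of all), adding C3 ENSECAT00000007897 (SAM q = 0.0749) and CD46 probe C (SAM q = 0.0897). The SAM q is a false discovery rate from permuted group labels, and is a different statistic from limma's adjusted p. The median log2 fold change was -1.36 over the 9 transcripts and 0.03 over all transcripts tested. By sequence, 4 of 7 probes were called (443 of all 4557 sequences tested): both of C3, that of CFI and that of CLU.

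CLU had the smallest adjusted p of the 9 transcripts in this comparison. It was 3.20-fold lower (log2 fold change -1.68, SE 0.39, adjusted p = 0.0247), with 8 of 10 MEA horses below the lowest CTRL horse. CFI was 2.56-fold lower (log2 fold change -1.36, SE 0.42, adjusted p = 0.0718), with 6 of 10 MEA horses below the lowest CTRL horse. C3 probe B was 2.59-fold lower (log2 fold change -1.37, SE 0.45, adjusted p = 0.0824), with 5 of 10 MEA horses below the lowest CTRL horse. The C3 identifiers on probe A split around the threshold although they share 1 sequence: ENSECAT00000008036 had an adjusted p of 0.055 and ENSECAT00000007684 of 0.098, and both were called, whereas ENSECAT00000007897 had 0.113 and was not. With the identifiers merged, probe A was called (adjusted p = 0.0823), and its log2 fold change was -1.47 (SE 0.48).

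The CD46 log2 fold changes between MEA and CTRL were -0.35 (SE 0.58) for probe A, -0.34 (SE 0.53) for probe B and -0.81 (SE 0.32) for probe C, with adjusted p values of 0.75, 0.735 and 0.141. The 95% intervals reached from -1.56 to 0.86, from -1.44 to 0.76 and from -1.48 to -0.14, so that a fall as large as that of C3 probe B (-1.37) lay within all 3 intervals.

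The calls between MEA and CTRL were also examined by slide. The arrays lay on 4 slides, each with all 3 groups, and the within-slide differences between group means carry no test. The 9 signs on a slide come from the same horses and from 7 probe sequences, so that they are not 9 separate observations. On slides 1, 2 and 3, all 9 transcripts were lower in MEA (differences of -3.42 to -0.30), with 1 MEA horse on slide 3. On slide 4, which held 5 of the 10 MEA horses and only CTRL replicate 7, all 9 were higher in MEA (differences of 0.02 to 1.51). When the slide was entered as a block, 1 of the 9 transcripts was called, CLU (log2 fold change -1.76, SE 0.41, adjusted p = 0.0655), and the share of all transcripts called was 3.47%. The log2 fold changes under this block were -1.52 for C3 ENSECAT00000008036, -1.15 for C3 probe B, -1.35 for CFI and -0.95 for CD46 probe C. Without CTRL replicate 7 or MEA replicate 7, 7 of 9 were called. The count fell to 1 without CTRL replicate 1, 4 or 6, to 2 without CTRL replicate 3 or MEA replicate 2, 4, 5, 9 or 10, and to 3 without CTRL replicate 5 or MEA replicate 8. Over these 17 fits, 157 to 740 of all transcripts were called, against 480 with all horses. Without CTRL replicates 1, 4 and 6, where 1 of the 9 was called, 157, 189 and 180 of all transcripts were. Without CTRL replicate 7 and MEA replicate 7, where 7 of the 9 were called, 645 and 740 of all transcripts were. The lowest and highest counts among the 9 thus went with low and high counts over the whole array, and are not particular to the 9. CLU was called with each of the 17 horses left out in turn (adjusted p of 0.00721 to 0.0736). In SEA against CTRL, all 9 transcripts were lower on each of the 4 slides (differences of -7.96 to -0.45). Slide 1, which gave the -7.96, held 1 SEA horse, and slide 4 held 1 SEA and 1 CTRL horse. With this block, 9 of 9 were called (32.6% of all).

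Between SEA and MEA, 0 of 9 transcripts were called by limma, where 2.05% of all transcripts tested were called and 0.73% were called lower in SEA. All 9 log2 fold changes were negative. The unadjusted p was below 0.05 for 5 of the 9, the 3 C3 identifiers on probe A and CD46 probes A and B, against 20.7% of all transcripts tested. SAM also called 0 of 9 (4.83% of all). Within slides, 9 of 9 differences were negative on slides 1 and 4, 6 of 9 on slide 2 (-0.62 to 0.41) and 7 of 9 on slide 3 (-1.50 to 0.49). Slides 1 and 4 held 1 SEA horse each, and slide 3 held 1 MEA horse. C3 probe A (ENSECAT00000007684) had the smallest adjusted p, 0.134 (log2 fold change -1.48, SE 0.50), and without MEA replicate 5 it was called (adjusted p = 0.0967). CLU (log2 fold change -0.39, 95% interval -1.45 to 0.66) and CD46 probe C (-0.27, 95% interval -0.97 to 0.43) had the smallest differences. The 3 comparisons share their horses in pairs and are not independent of each other.

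**Figure D2:**
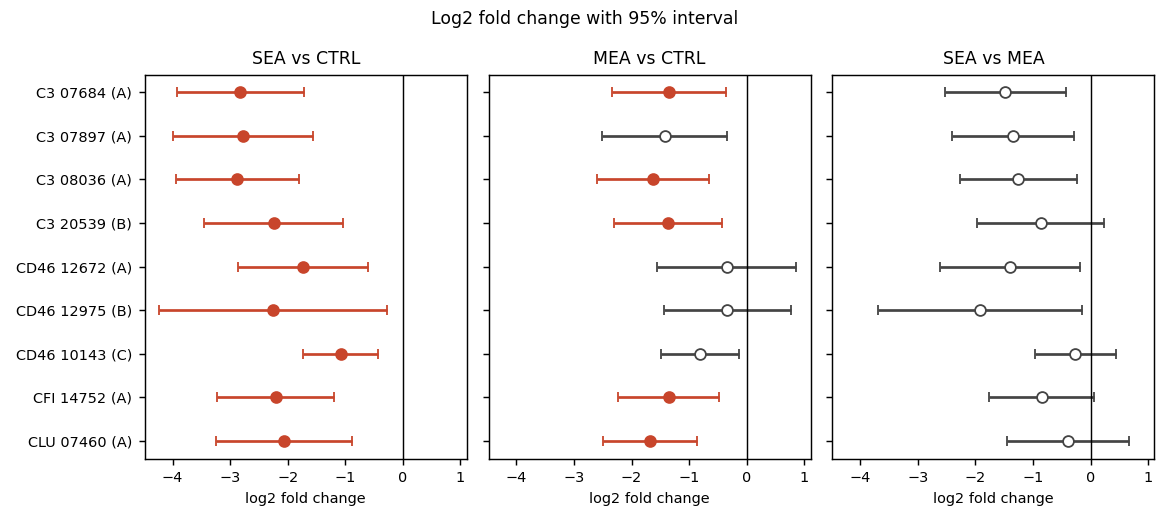
Log2 fold change of the 9 transcripts (horizontal axis) with its 95% interval from limma in SEA against CTRL, MEA against CTRL and SEA against MEA; filled points were called and open points were not. The called counts are 9, 5 and 0, and the 3 C3 rows marked A, which are the same probe sequence, fall on both sides of the threshold in MEA against CTRL.

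The agreement of probes was examined next. Over the 25 horses, after subtraction of each group's mean, the C3 identifiers on the same probe correlated at 0.97 to 0.98, which describes the array's own repeatability. The SD of the 6 spots of C3 probe A within an array had a median of 0.11 and a range of 0.04 to 0.82. C3 probes A and B correlated at 0.89 to 0.90. The CD46 probes agreed less, at 0.78 for B and C, 0.70 for A and B, and 0.54 for A and C, and the 2 spots of the dim probe A differed by up to 3.03 on 1 array. Without SEA replicate 1, the CD46 values were 0.82, 0.77 and 0.50. These correlations are descriptions over horses that share slides and normalization.

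Whether 2 transcripts of a gene changed by different amounts was tested on the difference between them in each horse, with two-sided exact permutation tests over horses. Of 27 tests (9 pairs of transcripts in 3 comparisons), 0 passed an adjusted p of 0.05, and 5 had an unadjusted exact p below 0.05. In SEA against CTRL, the log2 fold changes of C3 probe A differed from that of probe B by -0.63 to -0.53 over the 3 identifiers, with exact permutation p values of 0.00528 to 0.0468 and adjusted values of 0.0956 to 0.233. CD46 probe B differed from probe C by -1.65 in SEA against MEA (exact permutation p = 0.0106, adjusted p = 0.0956). The fold changes of identifiers on the same sequence differed by up to 0.27, which is the size of difference that spots alone gave here. With normexp correction, 4 of the 27 tests passed. That correction compresses dim probes more than bright ones and so by itself alters differences between probes of unlike brightness. The 4 therefore cannot tell whether the transcripts changed by different amounts. Without SEA replicate 7 or 8 the count was 2, and without MEA replicate 5 it was 1.

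**Figure D3:**
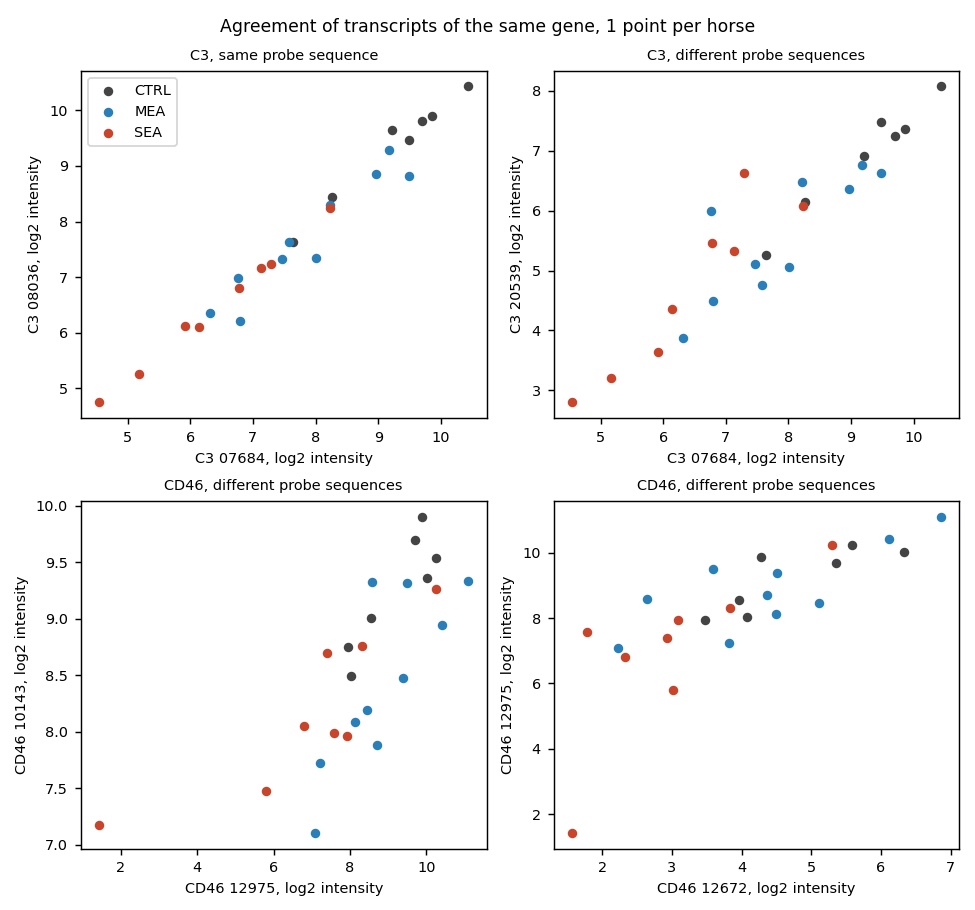
Log2 intensities of pairs of transcripts of the same gene, 1 point per horse, colored by group. C3 identifiers on the same sequence lie on a narrow line, C3 probes A and B scatter more, and CD46 probes scatter most, with SEA replicate 1 apart at 1.44 on CD46 probe B.

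Markers of other cells moved with the same groups. Of 14 tested transcripts of ciliated cells, 14 were called lower in SEA and 12 in MEA, each against CTRL, for example the radial spoke genes RSPH4A (log2 fold change -3.13, adjusted p = 0.0321 in SEA) and RSPH10B (log2 fold change -2.73, SE 0.78, adjusted p = 0.0213 in SEA). Their mean log2 intensity ranged from 9.29 to 11.17 in CTRL, from 6.41 to 10.69 in MEA and from 4.36 to 9.67 in SEA. Of 25 tested transcripts of other epithelial genes, 21 were called lower in SEA and 8 in MEA, for example the adhesion molecule EPCAM (-2.55, adjusted p = 0.0191 in SEA). Their mean ranged from 7.48 to 8.97 in CTRL, from 5.82 to 8.45 in MEA and from 4.16 to 7.72 in SEA. Of 8 neutrophil transcripts, 8 were called higher in SEA and 0 in MEA, for example the receptor TREM1 (3.60, adjusted p = 0.0119 in SEA), and their mean ranged from 7.37 to 10.28 in CTRL, from 8.76 to 12.73 in MEA and from 8.80 to 12.45 in SEA. Of 6 macrophage transcripts, 2 were called higher in each disease group and 0 lower. They were not the same transcripts in SEA and MEA, and those in MEA belong to a single gene. In SEA, the log2 fold changes of the 6 ranged from -1.12 to 0.86. Of 5 lymphocyte transcripts, which belong to 2 genes, 2 were called higher and 1 lower in SEA. Transcripts of the same gene were called in both directions. The named transcripts of these lists come from the study's changed transcripts, so that their counts are no independent evidence. Transcripts on the same sequence were also counted separately. The 14 ciliated transcripts rest on 12 probe sequences, the 25 other epithelial ones on 24 and the 8 neutrophil ones on 7. In RNA from whole BAL cells, fewer cells of a type and less RNA per cell cannot be told apart. In the study's cytology, the mean percentage of exfoliated epithelial cells was higher in MEA and SEA than in CTRL, with overlapping ranges. With that percentage as a covariate, 8 of the 9 complement transcripts were called in SEA against CTRL (31.1% of all). In MEA against CTRL, 0 of the 9 and 0 of all transcripts were.

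With the mean of the 14 ciliated transcripts as a covariate, 1 of 9 transcripts remained called in SEA against CTRL, C3 ENSECAT00000008036 (log2 fold change -1.53, SE 0.46, adjusted p = 0.0833), and 0 of 9 in MEA against CTRL. Of all transcripts, 333 (6.75%) and 0 were called with this covariate, so that these counts are not particular to the 9. The SEA change of CFI was then -0.65 (SE 0.29, adjusted p = 0.219), that of CLU -0.29 (SE 0.37, adjusted p = 0.693), and that of CD46 probe B 0.84 (SE 0.50, adjusted p = 0.355). The covariate itself differs between the groups, so that this fit cannot tell its part from that of the disease.

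Within each group, the level of each gene (the mean of its transcripts) was then set against 4 measures: the ciliated mean, the other epithelial mean, and the percentages of epithelial cells and of neutrophils that cytology gave for the same horse. The C3 mean thus holds probe A 3 times, and the CD46 mean includes the dim probe A and the widely spread probe B. Of 48 relations, 15 passed an adjusted p of 0.05 with Pearson's r and 9 of these also with Spearman's rho. All 24 correlations with the epithelial transcripts were positive. In SEA, r with the ciliated mean was 0.99 for CFI (exact permutation p = 7.44e-05, adjusted p = 0.00179, rho 0.98 with adjusted p = 0.00635), 0.94 for CLU (adjusted exact permutation p = 0.0111), 0.92 for CD46 (adjusted exact permutation p = 0.00238) and 0.83 for C3 (adjusted exact permutation p = 0.0345). For C3 and CLU in SEA, rho was 0.71 and 0.83, with adjusted exact permutation p values of 0.183 and 0.0671. With the other epithelial mean, r in SEA was 0.97 for CLU, 0.96 for CFI, 0.92 for CD46 and 0.89 for C3 (adjusted exact permutation p values of 0.00452, 0.00452, 0.00119 and 0.0132).

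The relations in SEA leaned to differing degrees on the horses with the lowest epithelial transcripts. SEA replicate 1 had the lowest ciliated mean, 4.36. Without the 2 horses farthest from the median of the measure, all 24 epithelial relations stayed positive. With the ciliated mean, r in SEA was then 0.96 for CFI, 0.84 for CD46, 0.64 for CLU and 0.39 for C3. With the other epithelial mean, r was 0.82 for CFI, 0.83 for CD46, 0.82 for CLU and 0.64 for C3. Of 48 relations, 0 passed the adjusted threshold with the 5 to 8 horses left. With 5 horses, even r = 0.95 (CFI and the ciliated mean in CTRL) gave an exact permutation p of 0.00833 and an adjusted p of 0.2. The count of 0 therefore cannot tell whether a relation was lost. Without SEA replicate 1 alone, 8 relations passed, and without MEA replicate 7 alone, 10.

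In CTRL, CFI and the ciliated mean had r = 0.93 (exact permutation p = 0.00238, adjusted p = 0.0132), rho = 0.96 and r = 0.95 without the 2 farthest horses, so that CFI and the ciliated mean also moved together among healthy horses. C3 in CTRL had r = 0.63 (adjusted exact permutation p = 0.284). In MEA, with permutation tests of 1e+05 resamples, CLU had r = 0.83 with the other epithelial mean (adjusted p = 0.00488, rho 0.95) and 0.75 without the 2 farthest horses. CFI in MEA had r = 0.74 with the ciliated mean (permutation test, adjusted p = 0.0459) and 0.25 without the 2 farthest horses. C3 in MEA passed with none of the 4 measures.

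None of the 12 relations with the cytological percentage of epithelial cells passed, with r from -0.47 to 0.44. Exfoliated epithelial cells were few in every horse of the study's cytology, which makes this percentage a coarse measure. With so few horses per group, the lack of a passing relation cannot tell whether epithelial cell number and gene level are unrelated. Of the 12 with the percentage of neutrophils, 1 passed: CD46 in CTRL (r = -0.88, adjusted exact permutation p = 0.0408, rho -0.80 with adjusted p = 0.162).

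**Figure D4:**
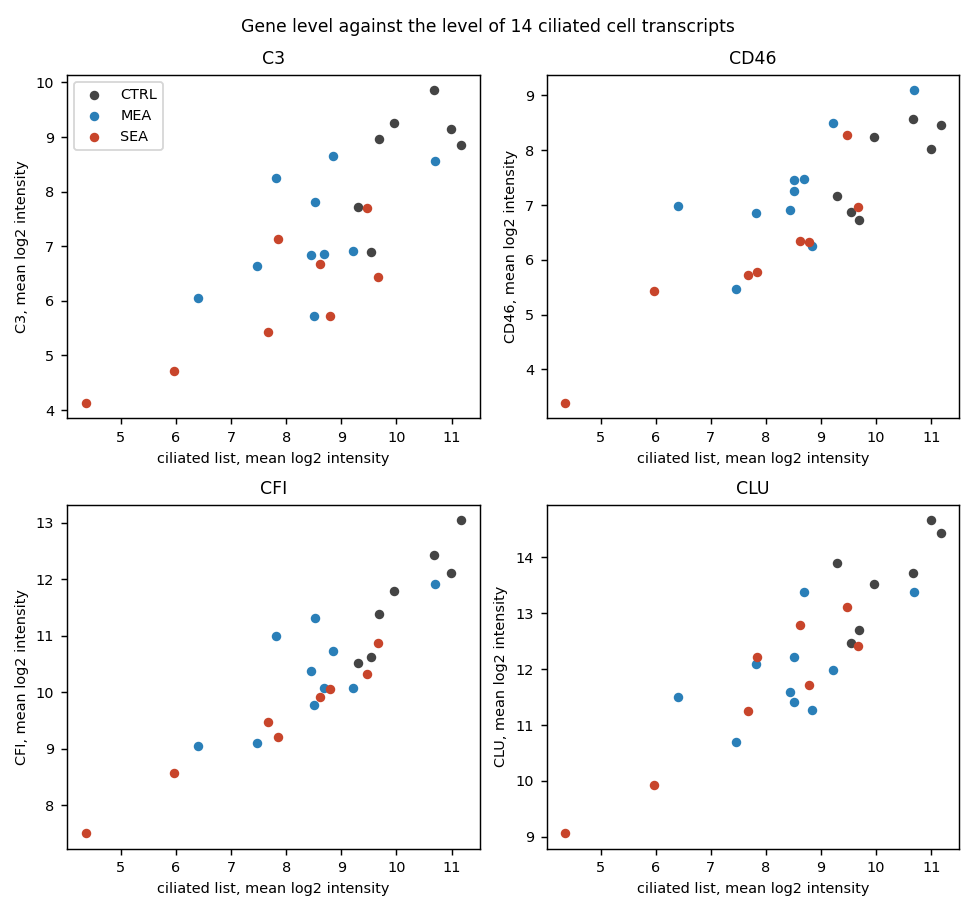
Level of each gene (mean log2 intensity of its transcripts, vertical axis) against the mean log2 intensity of 14 ciliated cell transcripts (horizontal axis), 1 point per horse, colored by group. CFI lies closest to a line in CTRL (r = 0.93) and SEA (r = 0.99), C3 scatters most in MEA (r = 0.53), and the 2 SEA horses at the left had the lowest ciliated means.

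Between the genes, correlations over the 25 horses after subtraction of group means were 0.81 for CD46 and CLU, 0.78 for C3 and CFI, 0.75 for CD46 and CFI, 0.73 for CFI and CLU, 0.65 for C3 and CLU and 0.57 for C3 and CD46. Without SEA replicate 1 they ranged from 0.46 to 0.74. The transcripts with a symbol whose pattern was most like each gene, by the same measure over 4921 other transcripts, were the following. For C3 they were the microtubule linker HOOK2 (0.81), the calcium channel subunit CACNB3 (0.80), FAM3D (0.78), the polarity gene LLGL2 (0.78) and CARD14 (0.77). For CD46 they were the retinoic acid receptor RARB (0.93), the terminal complement component C6 (0.93), the radial spoke gene RSPH10B (0.93), C10ORF93 (0.93) and CDKL1 (0.92). For CFI they were the alpha tubulin TUBA1A (0.90), MLF1 (0.88), HMGN3 (0.88), the intraflagellar transport gene IFT46 (0.88) and the peroxiredoxin PRDX6 (0.88). For CLU they were the collagen COL18A1 (0.93), TTC39A (0.93), EPCAM (0.92), NOXA1 (0.92) and the mucosal chemokine CXCL17 (0.91). Horses share slides and normalization, and these values are descriptions.

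Other complement genes did not all move in the direction of the 4 genes. Of 9 named transcripts of 8 such genes, 8 of 7 genes passed the filter, on 7 probe sequences, and C9 did not pass. In SEA against CTRL, 2 were called lower and 4 higher, where 44.1% and 42.0% of all tested transcripts with a symbol were, so that 6 of 8 is no more than the share among named transcripts. C6, a component of the membrane attack complex, was lower (log2 fold change -2.56, SE 0.84, adjusted p = 0.0351). C1QBP, a C1q-binding protein found mostly in mitochondria, was lower by a smaller amount (-0.65, SE 0.21, adjusted p = 0.0313).

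The 4 transcripts called higher in SEA belong to genes of cell surface proteins. C3AR1, the receptor of the C3 fragment C3a, was higher (log2 fold change 0.93, SE 0.39, adjusted p = 0.0857). ITGAX, the alpha chain of complement receptor 4, was higher on both transcripts (1.38 and 1.55, adjusted p = 0.0169 and 0.0166), which carry the same sequence. CD93, a surface protein of myeloid and endothelial cells once described as a C1q receptor, was higher (1.5, SE 0.26, adjusted p = 0.0038). SERPING1, the C1 inhibitor (-1.22, SE 0.57, adjusted p = 0.117), and VSIG4, a macrophage complement receptor (-0.54, SE 0.66, adjusted p = 0.579), did not pass.

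In MEA against CTRL, 2 of the 8 were called, against 25.2% of those with a symbol: C1QBP lower (log2 fold change -0.59, SE 0.21, adjusted p = 0.0955) and CD93 higher (0.90, SE 0.24, adjusted p = 0.0415). C3AR1 had 1.27 (SE 0.49, adjusted p = 0.132). In SEA against MEA, 0 of the 8 were called by limma, and C6, CD93 and 1 of the ITGAX transcripts had unadjusted p values below 0.05 (0.0435, 0.0328 and 0.0272). The median log2 fold change of the 8 was 0.20 in SEA and 0.14 in MEA, each against CTRL. Neutrophil transcripts were higher in the same SEA horses, and their part in the rises was not tested.

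**Figure D5:**
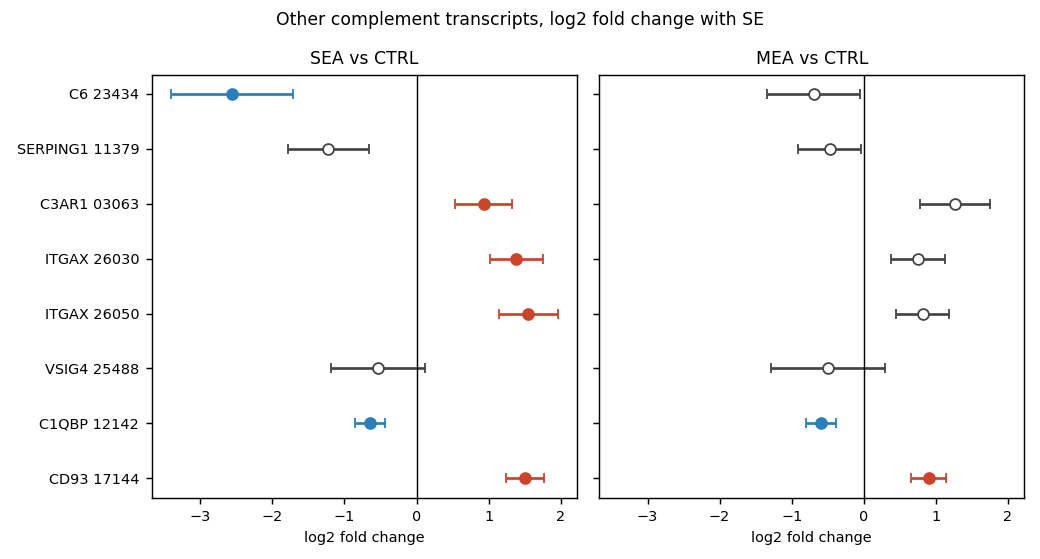
Log2 fold change (horizontal axis) with its SE for 8 other complement transcripts in SEA against CTRL and MEA against CTRL; blue points were called lower, red points called higher and open points not called. C6 and C1QBP lie left of 0 in SEA, and C3AR1, ITGAX and CD93 right of it.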

How the data were processed

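RNA of BAL cells from 25 horses was hybridized to one-color arrays, 1 per horse. Per the labels, groups are the diagnoses Control (CTRL), IAD (MEA) and RAO (SEA). The authors deposited the spot intensity of each array, background-subtracted and detrended by the scanner software and not normalized between arrays, and a table in which they had normalized these intensities between arrays (cyclic loess; values not on a log scale). Per the labels, R 2.11.1 was used. The scanner files also hold flags for spots well above background and saturated spots.

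Here, log2 intensities of 14476 spots were normalized by cyclic loess (span 0.7, 3 iterations) with limma 3.58.1 (R 4.3.3, data.table version 1.17.8), the 2 spots of a transcript were averaged, and transcripts below 4.5 on at least 19 arrays were left out, which left 4930. The scale of that limit is not given in the sources used here, and log2 was assumed. The values correlated at 0.9995 with the authors' normalized values. Comparisons were fitted to the arrays of the 2 groups with lmFit and eBayes. limma took the place of the SAM rank sum test of the study's methods, which was run as an alternative. Pairs of transcripts and relations were tested by permutation in Python 3.11.15 with numpy 2.4.6 and scipy 1.17.1, exact except for relations in the 10 MEA horses, which used 1e+05 resamples. The steps were tested on simulated data. Arrays have no read depth, and their number limits the precision.

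Cytological percentages came from the study and entered only relations and a covariate. The genes and lists were chosen with earlier results of these data known. Named are all member transcripts, every named transcript of the complement list other than an item that is not reported here, the 5 most alike symbols per gene and at most 2 transcripts per marker list by the size of their SEA change. Lists of mast cell and erythrocyte markers had no named transcript, and THY1, the only tested fibroblast marker, was not called (log2 fold change -1.92, adjusted p = 0.157 in SEA). Alternatives were other scalings and inputs, filters, thresholds, blocks and covariates, single spots, and each horse left out. Chosen after the data were seen were transcripts merged by sequence, a covariate for the share of spots well above background, pairs of different sequences only, and C3 as the mean of its 2 sequences.

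Replicate numbers do not pair the horses: deviations of same-numbered horses correlated between -0.44 and 0.41. Each horse is a separate animal.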

Additional observations from a re-analysis of the deposited data

How the results depend on the processing

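In SEA against CTRL, between 8 and 9 of 9 transcripts were called under each alternative (7 of 7 by sequence), other than the ciliated mean as a covariate, where 1 was. Without 1 horse, 24.9% to 34.3% of all transcripts were called in this comparison, and 6.75% with the ciliated covariate. In MEA against CTRL, where 5 were called, the count was 7 with SAM, 4 with quantile normalization, the authors' values, the background filter, the background-share covariate or merged sequences, 3 with 75th percentile scaling, no intensity filter or all 25 arrays in 1 fit, 2 with normexp correction, 1 with the slide or the scan date as a block or an adjusted p below 0.05, and 0 with the cytological percentage of epithelial cells or the ciliated mean as a covariate, which left 0 of all transcripts called. Leaving out 1 horse gave 1 to 7, where 157 to 740 of the 4930 transcripts tested were called. Of all transcripts, 9.74% were called in the main fit, 11.1% with SAM and 3.47% with the slide as a block. The count among the 9 thus moved with the count over the whole array in these fits, and its changes are not particular to the 9. For the other settings of this comparison, the share of all transcripts is not set beside the count here. In SEA against MEA, leaving out 1 horse gave 0 to 1 (0.0406% to 11.2% of all), and all other alternatives gave 0. With the replicate block, 9, 5 and 0 transcripts were called, as without it. Of 27 pair tests, 4 passed with normexp correction, which by itself compresses dim probes more than bright ones, and 0 to 2 without 1 horse. Of 48 relations, 8 to 17 passed without 1 horse. Without the 2 farthest horses 0 passed, where the 5 to 8 horses left limit what can pass.

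Reversals of direction, none of them called, were 0.84 for CD46 probe B in SEA against CTRL, 1.13 and 1.05 for CD46 probes A and B in MEA against CTRL and 0.0365 for CLU in SEA against MEA, each on the log2 scale with the ciliated mean as a covariate, and 0.0938 for CD46 probe A in MEA against CTRL with normexp correction. The cause was not tested. Dixon's test flagged no horse in any of 27 groups of values. With so few horses per group it flags only large gaps, so that this does not show that no horse is outlying. SEA replicate 1 lay at 1.44 on CD46 probe B, where the next SEA horse was at 5.80.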
